A study of Mus musculus with 6 samples.

Results

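The mitosis and G2/M genes are 42 genes that cells use to enter and pass through division. They were taken by symbol from the gene count table of adult mouse hematopoietic stem cells (HSCs) as a list of cyclins, mitotic kinases, kinesins, kinetochore genes and their partners. All 42 were found among the 34573 genes of the table, and all 42 were among the 14004 genes with enough reads for a test. The cells came from bone marrow of young adult mice on the C57BL/6 background that were either Rpl22+/+ or Rpl22-/-, that is, lacking ribosomal protein Rpl22 in every cell. Lineage-negative, Sca-1+, c-Kit+, CD48-, CD150+ cells, the HSCs as the paper defines them, were sorted from untreated animals, and polyA RNA was sequenced from 3 samples per genotype. Whether a sample held the marrow of a single mouse or of several is not given in the sources used here, so p-values measure the spread between these samples. The question for these genes is whether the RNA of the division program differed between Rpl22-/- and Rpl22+/+ HSCs.

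Most HSCs rest outside the cell cycle, and transcripts of the division program come from those that are cycling. The program is driven by cyclin-dependent kinase 1 (Cdk1) bound to cyclins A2, B1 and B2, and it continues with the Aurora and Polo kinases, the kinetochores that hold chromosomes to the spindle, the kinesins that build it, and the anaphase-promoting complex, which ends mitosis by marking cyclins and other proteins for destruction. The genes are switched on late in the cycle by the MuvB complex with B-Myb and Foxm1, and in resting cells they are held off by the DREAM complex, the same MuvB core with the pocket protein p130 and E2f4. MuvB reaches them through the cell cycle genes homology region, a short promoter element with the letters TTTGAA, and boxes bound by the factor NF-Y usually lie close to it. In bulk RNA, fewer cycling cells and less RNA per cycling cell cannot be told apart.

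The promoters show what the genes share apart from their names. RefSeq promoters on GRCm38.p6, from 250 bases before to 50 bases after each start site, were at hand for 34 of the 42 genes. TTTGAA, read on either strand, was in the promoters of 25 of the 34 (73.5%), against 20.2% of all 27025 genes with a promoter of this length and 14.4% of the 9347 among the tested genes. The letters CCAAT of the NF-Y box, on either strand, were in 26 of the 34 (76.5%), against 41.1% of all genes. Both motifs, which do not overlap each other, were in 21 of the 34 (61.8%), against 8.97% of all genes. Of the 35 S phase genes with a promoter, 11.4% held TTTGAA and 60.0% held CCAAT. Among 103 other mitotic genes with a promoter, 38.8% held TTTGAA, 61.2% held CCAAT and 29.1% held both. A match describes letters in a window and is no proof of binding.

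The last 110 bases before the start site are printed for 7 genes to show how these motifs sit together, with TTTGAA or its reverse TTCAAA, and CCAAT or its reverse ATTGG, in capitals. Plk1, Ube2c and Ccnb2 are shown as the genes with the 3 smallest p-values of the list and Bub1 as the gene whose Rpl22-/- libraries all lay below the Rpl22+/+ libraries. Cdk1, Top2a and Kif11 stand for the kinase, the topoisomerase and the spindle motor of the program. Each runs 5′ to 3′ on the strand of its gene, at chr9:70421555-70421664 (−) for Ccnb2, chr10:69352913-69353022 (−) for Cdk1, chr2:164769819-164769928 (+) for Ube2c, chr7:122159325-122159434 (+) for Plk1, chr2:127831860-127831969 (−) for Bub1, chr19:37376272-37376381 (+) for Kif11 and chr11:99024190-99024299 (−) for Top2a.
Ccnb2: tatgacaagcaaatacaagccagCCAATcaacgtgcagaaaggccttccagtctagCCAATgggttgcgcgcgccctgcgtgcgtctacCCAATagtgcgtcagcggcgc
Cdk1: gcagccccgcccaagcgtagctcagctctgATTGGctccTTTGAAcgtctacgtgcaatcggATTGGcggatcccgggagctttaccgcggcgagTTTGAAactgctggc
Ube2c: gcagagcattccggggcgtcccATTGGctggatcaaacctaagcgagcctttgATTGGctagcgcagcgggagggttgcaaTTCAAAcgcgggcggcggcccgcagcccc
Plk1: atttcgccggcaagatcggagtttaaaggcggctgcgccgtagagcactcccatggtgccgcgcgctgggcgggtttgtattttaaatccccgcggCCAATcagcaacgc
Bub1: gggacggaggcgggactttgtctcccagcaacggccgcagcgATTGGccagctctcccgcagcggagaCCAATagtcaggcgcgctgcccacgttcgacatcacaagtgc
Kif11: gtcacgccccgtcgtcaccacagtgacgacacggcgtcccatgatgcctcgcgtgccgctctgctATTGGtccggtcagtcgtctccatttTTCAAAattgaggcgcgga
Top2a: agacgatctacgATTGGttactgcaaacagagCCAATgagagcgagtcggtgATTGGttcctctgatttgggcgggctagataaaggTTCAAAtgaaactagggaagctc
In Ccnb2, 3 CCAAT boxes began at positions −87, −54 and −21 from the start site and TTTGAA at −167 and 5, outside the letters shown, and in Top2a, Ube2c and Kif11 the copy of TTCAAA nearest to the start began at −23, −29 and −19. Plk1 had its TTTGAA after the start site, at position 31, and Bub1 had none in the whole window.

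Between 9321123 and 13385850 reads per library fell on genes. The knockout was plain in every library, with Rpl22 at 35.0, 43.9 and 41.5 CPM (reads per 1e+06 reads on genes, scaled by TMM factors) in Rpl22-/- replicates 1, 2 and 3 and at 529, 562 and 523 CPM in the Rpl22+/+ replicates (log2 fold change −3.75, standard error, SE, 0.11, adjusted p = 2.97e-12 by edgeR). The sorted cells carried the HSC markers, 13 genes with a summed level of 2797 to 3095 CPM in the 6 libraries. The B cell gene Ms4a1 and the T cell genes Cd3e and Trac had no read in any library. The B cell markers summed to 27.5 to 30.6 CPM in Rpl22-/- and 24.2 to 25.9 CPM in Rpl22+/+ libraries, and the T and NK cell markers to 50.7 to 60.8 and 44.6 to 48.4 CPM. Neither sum overlapped between the genotypes, with Nkg7 at 35.0, 40.5 and 40.6 against 26.4, 33.3 and 31.2 CPM (adjusted p = 0.0911 by edgeR). Of the 6 genes tested in these lists, 0 passed the adjusted threshold by edgeR. At an unadjusted p below 0.05 there were 2, where 22.3% of all genes tested were. The megakaryocyte markers moved with genotype. All 12 had a positive log2 fold change, 9 of them with an adjusted p below 0.05 by edgeR. Over all genes tested, 48.7% were positive and 3.28% were called higher. The megakaryocyte markers summed to 1550, 1479 and 1276 CPM in Rpl22-/- and 937, 1159 and 884 CPM in Rpl22+/+ libraries. The markers of multipotent and myeloid progenitors, which cycle more than HSCs, summed to 421, 615 and 438 CPM in Rpl22-/- and 451, 472 and 485 CPM in Rpl22+/+ libraries. Most of that sum was Cd34, and the median log2 fold change of the 9 progenitor markers tested was 0.50, with 7 positive. Ctsg, a granule protease, was called higher by edgeR (2.18, 13.6 and 3.65 against 0.0768, 0.803 and 1.98 CPM, log2 fold change 2.85, adjusted p = 0.0282). Mpo overlapped, at 13.9, 101 and 17.1 against 1.46, 5.78 and 20.5 CPM, with by far its highest value in Rpl22-/- replicate 2 (log2 fold change 2.32, adjusted p = 0.0642 by edgeR). Flt3 had lower values in every Rpl22-/- library (log2 fold change −0.36, adjusted p = 0.0675 by edgeR). Of the 9 mature myeloid markers tested, 7 had positive fold changes. Camp was called higher on few reads, 11, 31 and 47 against 10, 2 and 3 (log2 fold change 2.43, adjusted p = 0.0291 by edgeR). The mature myeloid markers summed to 221 to 267 CPM in Rpl22-/- and 220 to 231 CPM in Rpl22+/+ libraries. What part any of these lists has in the values below was not tested.

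The mitosis and G2/M genes did not pass the test as single genes. The edgeR quasi-likelihood fit, its p-values adjusted by Benjamini-Hochberg across the 14004 genes, gave 0 of the 42 an adjusted p under 0.05, while 780 genes passed across the table, 5.57% of those tested (3.28% higher and 2.29% lower in Rpl22-/- HSCs). DESeq2 called 2, Plk1 and Ube2c, both higher in Rpl22-/- HSCs, where it called 7.42% of all genes, and limma-voom called 0, with 5.30% of all genes. Without the filter on low counts edgeR called 5, namely Birc5, Mki67, Plk1, Tpx2 and Ube2c, where 6.89% of all genes were called. The fit without the filter gave other standard errors (SE). That of Mki67 was 0.099, against 0.14 with the filter, and that of Smc4 was 0.096, against 0.091. At an unadjusted p below 0.05, edgeR gave 7 of the 42 (16.7%), 6 higher and 1 lower in Rpl22-/- HSCs, against 22.3% of all genes tested (11.6% higher and 10.7% lower). The log2 fold changes were positive for 28 genes (66.7%, against 48.7% of all genes tested) and negative for 14, with a median of 0.079 over the list and −0.0068 over all genes tested. Scaled by library size alone, 25 were positive and the medians were 0.032 and −0.051. The values ran from −0.29 for Ect2 to 0.53 for Plk1. Standard errors were between 0.090 and 0.19, with a median of 0.12, and the 95% interval of every one of the 42 lay within 1 log2 unit of no change. The interval that reached furthest up ended at 0.87 (Plk1), a 1.82-fold difference, and the one that reached furthest down ended at −0.65 (Ect2).

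**Figure D1:**
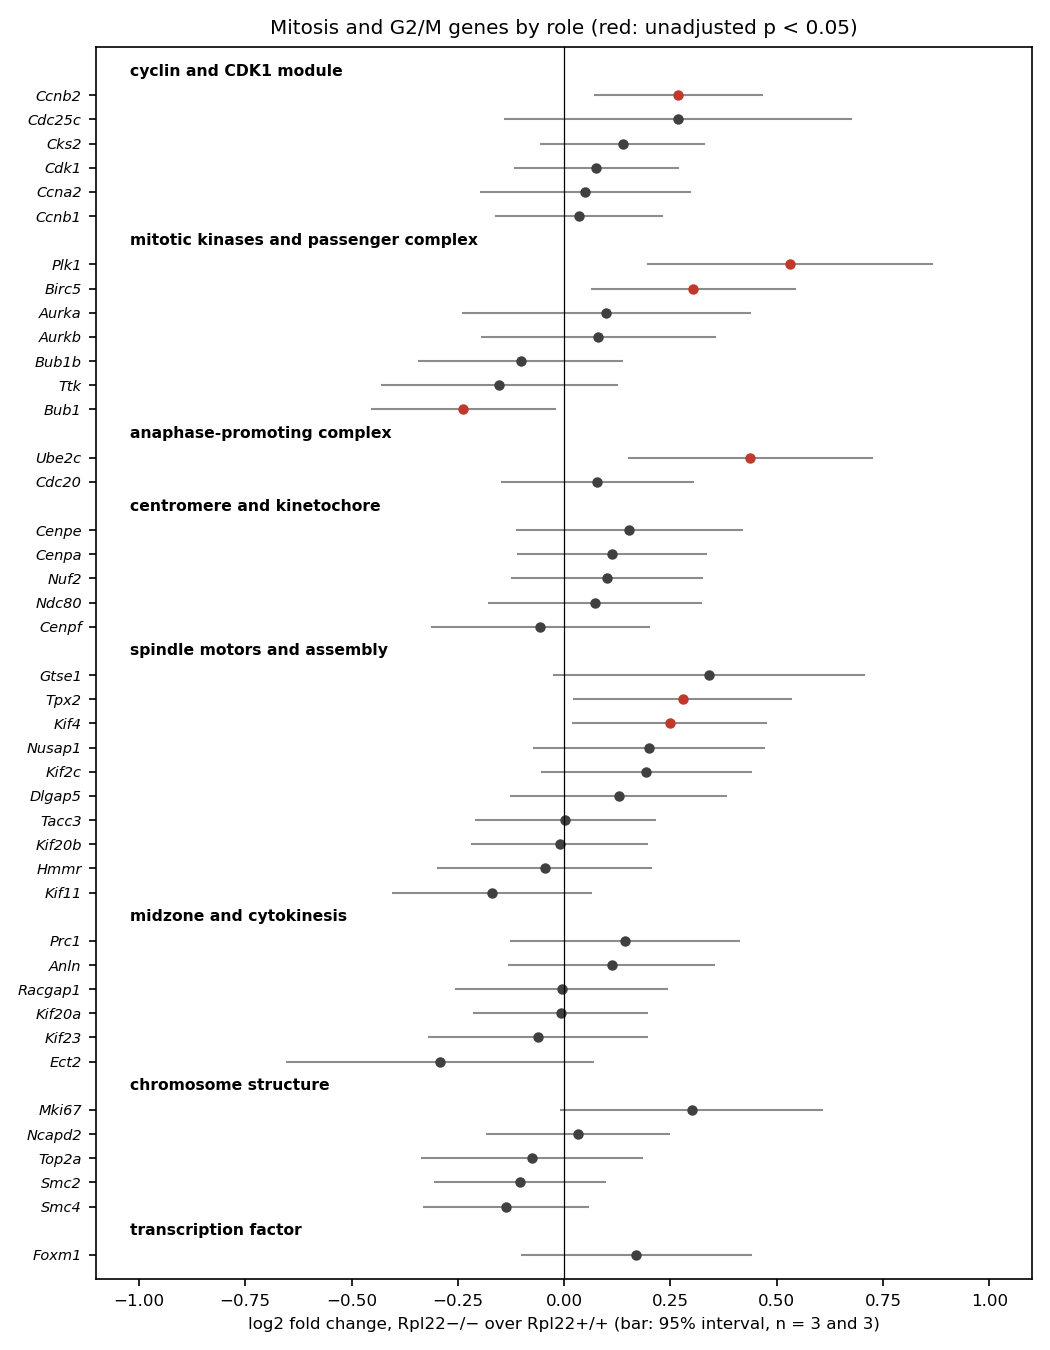
Log2 fold change of each of the 42 genes, Rpl22-/- over Rpl22+/+ HSCs, grouped by role, with the 95% interval from edgeR's quasi-likelihood fit (n = 3 libraries per genotype) and the 7 genes with an unadjusted p below 0.05 in red. The values lie on both sides of 0, from −0.29 (Ect2) to 0.53 (Plk1), and no interval reaches a log2 change of 1 in either direction.

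The cyclins and Cdk1 with its partners all had positive fold changes, 6 of 6, though scaling by library size alone turned Ccnb1 to −0.011, and 0 of the 6 passed the adjusted threshold by edgeR, with 1 at an unadjusted p below 0.05. Ccnb2, cyclin B2, an activating partner of Cdk1 at the entry into mitosis, measured 81.8, 97.8 and 99.4 CPM in Rpl22-/- replicates 1, 2 and 3 and 75.9, 75.6 and 80.1 CPM in Rpl22+/+ replicates 1, 2 and 3. Every Rpl22-/- library was above every Rpl22+/+ library, although Rpl22-/- replicate 1 was only just above the highest Rpl22+/+ value. The log2 fold change of Ccnb2 was 0.27 (SE 0.093, adjusted p = 0.0970 from edgeR), and across the list only Ccnb2 and Bub1 had libraries that did not overlap, 2 of 42 (4.76%) against 26.9% of all genes tested (13.3% higher and 13.6% lower). Ccnb1, cyclin B1, measured 70.5, 83.6 and 82.6 CPM in Rpl22-/- and 75.2, 74.8 and 81.2 CPM in Rpl22+/+ libraries, so that the genotypes overlapped throughout. The fitted difference of Ccnb1 was 0.035 on the log2 scale (SE 0.091, adjusted p = 0.864). Transcripts of 5 annotated copies share at least 95% of their letters with Ccnb1 over 300 bases or more, Ccnb1-ps among them at 99.2%. The table lists reads that align to several places apart from the genes, so the level of Ccnb1 is less certain. Racgap1 and Ndc80 also have such a copy, at 98.2% over 488 bases and 95.05% over 303 bases. Cdk1, the kinase itself, stood at 83.5, 99.2 and 98.8 CPM against 89.6, 85.8 and 91.8 CPM, with the lowest value in Rpl22-/- replicate 1 and the next 3 in Rpl22+/+ (log2 fold change 0.076, SE 0.090, adjusted p = 0.672). Ccna2, cyclin A2, which acts from S phase into early mitosis, measured 123, 176 and 174 CPM against 150, 145 and 161 CPM, and its log2 fold change was 0.050 (SE 0.12, adjusted p = 0.841). Cdc25c, the phosphatase that removes inhibitory phosphates from Cdk1, measured 12.9, 19.6 and 24.0 CPM against 13.6, 15.8 and 17.7 CPM. It had 166 to 316 reads per library, and its SE of 0.19 was the widest of the 42 (log2 fold change 0.27, adjusted p = 0.441). Cks2, a small subunit that binds Cdk1, lay at 0.14 on the log2 scale (adjusted p = 0.394).

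The mitotic kinases split between higher and lower values. Plk1, Polo-like kinase 1, which acts on centrosomes, kinetochores and mitotic entry, was read 427, 620 and 770 times in Rpl22-/- replicates 1, 2 and 3, and 429, 399 and 330 times in the Rpl22+/+ replicates. Scaled, these were 33.3, 51.6 and 58.5 CPM against 33.0, 32.0 and 34.3 CPM. The 3 Rpl22+/+ libraries lay within a narrow band, Rpl22-/- replicates 2 and 3 lay well above it, and Rpl22-/- replicate 1 lay inside it. The mean was 47.8 ± 13.0 CPM (SD, n = 3) against 33.1 ± 1.16 CPM (SD, n = 3), and the log2 fold change of 0.53 was the largest of the list (SE 0.16, adjusted p = 0.0592 from edgeR). The adjusted p of Plk1 was below 0.05 with DESeq2 (0.0259), and without Rpl22-/- replicate 1 its log2 fold change was 0.74 (adjusted p = 0.000520 from edgeR). Over the fits that left out a library, the log2 fold change of Plk1 went down to 0.36 and its adjusted p up to 0.265. Bub1, a checkpoint kinase of the kinetochore, ran the other way, with 46.3, 57.3 and 57.2 CPM in Rpl22-/- and 62.9, 59.8 and 66.9 CPM in Rpl22+/+ libraries. Each Rpl22-/- value lay under the lowest Rpl22+/+ value, the only such case among the 42 (log2 fold change −0.24, SE 0.10, adjusted p = 0.181). Bub1b, which encodes the checkpoint protein BubR1, measured 87.9, 118 and 127 CPM against 116, 121 and 121 CPM. Its low value was again that of Rpl22-/- replicate 1 (log2 fold change −0.10, SE 0.11, adjusted p = 0.644).

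Among the other kinases of mitosis, Aurka, Aurora kinase A, which matures centrosomes and the spindle poles, measured 25.1, 38.8 and 38.5 CPM in Rpl22-/- and 31.4, 27.4 and 37.0 CPM in Rpl22+/+ libraries. The genotypes overlapped, and the log2 fold change was 0.099 (SE 0.16, adjusted p = 0.764). Aurkb, Aurora kinase B, the enzyme of the chromosomal passenger complex, measured 51.4, 63.5 and 74.4 CPM against 56.8, 53.1 and 69.6 CPM, likewise overlapping (log2 fold change 0.081, SE 0.13, adjusted p = 0.764). Its partner Birc5, survivin, stood at 57.2, 69.7 and 80.8 CPM against 54.2, 55.5 and 58.8 CPM, with Rpl22-/- replicate 1 within the range of Rpl22+/+ and the other Rpl22-/- libraries above it. The log2 fold change of Birc5 was 0.30 (SE 0.11, unadjusted p = 0.0159, adjusted p = 0.119), whereas that of Ttk, the checkpoint kinase Mps1, was −0.15 (adjusted p = 0.530).

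Of the genes of the anaphase-promoting complex on the list, Ube2c, the ubiquitin-conjugating enzyme of the complex, had 600, 799 and 918 reads in Rpl22-/- and 587, 501 and 481 reads in Rpl22+/+ libraries. That is 46.8, 66.5 and 69.7 CPM against 45.1, 40.2 and 50.0 CPM, so Rpl22-/- replicate 1 fell inside the Rpl22+/+ range and the other 2 Rpl22-/- libraries lay above it. The log2 fold change of Ube2c was 0.44 (SE 0.13, adjusted p = 0.0670 from edgeR and 0.0405 from DESeq2), and without Rpl22-/- replicate 1 it was 0.60 (adjusted p = 0.00214 from edgeR). Over the fits that left out a library, it went down to 0.33 and its adjusted p up to 0.261. Exons of Tnnc2 on the opposite strand cover 22.8% of the exon bases of Ube2c, and the strand setting of the counting is not stated in the sources used here. Cdc20, the activator of the complex that the checkpoint restrains, measured 62.4, 70.5 and 68.8 CPM against 57.2, 59.6 and 74.8 CPM (log2 fold change 0.078, SE 0.11, adjusted p = 0.719). Here the highest of the 6 values was in Rpl22+/+ replicate 3.

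The centromere and kinetochore genes lay close to no change. Their 5 log2 fold changes lay between −0.056 and 0.15, and the smallest adjusted p was 0.506. Cenpe, the kinesin that carries chromosomes to the spindle equator, measured 102, 105 and 145 CPM in Rpl22-/- and 93.2, 107 and 117 CPM in Rpl22+/+ libraries. Cenpf, a large outer kinetochore protein, measured 100, 117 and 150 CPM against 124, 120 and 138 CPM. In both genes Rpl22-/- replicate 3 was the highest of the 6 libraries and the genotypes overlapped. Ndc80, the microtubule-binding core of the outer kinetochore, measured 33.5, 37.9 and 41.6 CPM against 33.6, 34.0 and 40.1 CPM, with nearly the same range in each genotype (log2 fold change 0.072, SE 0.12). Cenpa, the histone H3 variant that marks centromeres, and Nuf2, the partner of Ndc80, had log2 fold changes of 0.11 and 0.10.

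The spindle motors and assembly factors were the largest group by number, with 7 positive and 3 negative log2 fold changes among 10 and a median of 0.16. Kif4, a chromokinesin on the X chromosome that shortens and organizes the central spindle, measured 61.8, 82.4 and 76.3 CPM in Rpl22-/- and 57.1, 64.8 and 63.9 CPM in Rpl22+/+ libraries (log2 fold change 0.25, SE 0.11, adjusted p = 0.183). Tpx2, which activates Aurora A and starts microtubules near chromosomes, measured 114, 169 and 162 CPM against 129, 116 and 121 CPM (log2 fold change 0.28, SE 0.12, adjusted p = 0.186). In Tpx2 the lowest of all 6 libraries and the 2 highest were all Rpl22-/-. Gtse1, which holds back a microtubule-depolymerizing kinesin and binds p53, measured 19.4, 27.9 and 34.5 CPM against 23.0, 19.5 and 22.2 CPM, with the 3 Rpl22-/- libraries spread across a far wider range than the Rpl22+/+ libraries (log2 fold change 0.34, SE 0.17, adjusted p = 0.258). Kif11, the kinesin that pushes spindle poles apart, went the other way at 144, 170 and 200 CPM against 177, 195 and 207 CPM (log2 fold change −0.17, SE 0.11, adjusted p = 0.385). Nusap1, Kif2c and Dlgap5 had log2 fold changes of 0.20, 0.19 and 0.13, while Tacc3, Kif20b and Hmmr lay at 0.0029, −0.011 and −0.046.

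The midzone and cytokinesis genes had a median log2 fold change of −0.0069, with 2 positive and 4 negative values. Prc1, which bundles the antiparallel microtubules of the midzone, measured 118, 145 and 180 CPM in Rpl22-/- and 126, 125 and 150 CPM in Rpl22+/+ libraries (log2 fold change 0.14, SE 0.13, adjusted p = 0.545). Ect2, the exchange factor that switches on RhoA at the cleavage furrow, had the lowest fold change of the 42. It measured 22.7, 29.0 and 36.2 CPM against 30.3, 32.6 and 45.3 CPM, and replicate 3 stood highest in each genotype (log2 fold change −0.29, SE 0.17, adjusted p = 0.327). Kif20a, Racgap1 and Kif23, the motor and the centralspindlin subunits that work with Ect2, lay at −0.0082, −0.0055 and −0.061, and Anln, the furrow scaffold anillin, at 0.11. Exons of Cdc23 on the opposite strand cover 29.3% of the exon bases of Kif20a, the largest such share among the 10 members that share exon bases with a gene on the other strand.

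**Figure D2:**
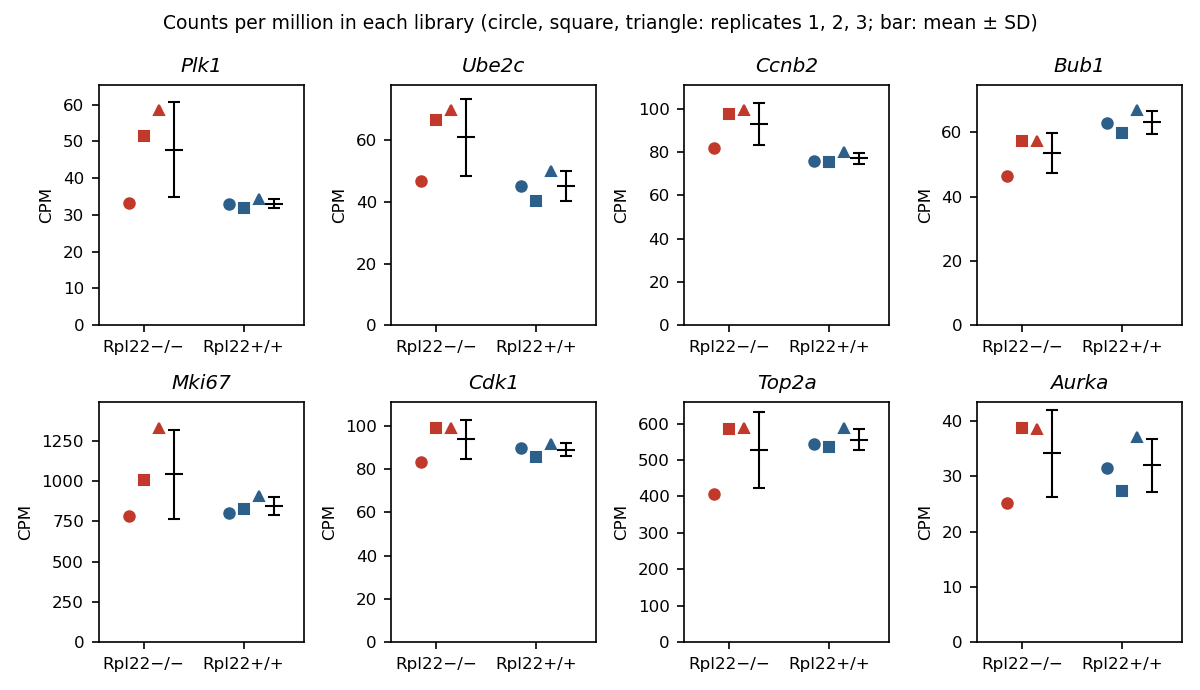
CPM of 8 of the genes in each library, on axes that start at 0, with circles, squares and triangles for replicates 1, 2 and 3 and a bar for the mean ± SD (n = 3 per genotype). In Plk1 and Ube2c the circle of Rpl22-/- replicate 1 lies at the level of the Rpl22+/+ libraries and the other Rpl22-/- libraries lie above, while in Bub1 all 3 Rpl22-/- libraries are the lower ones.

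Of the genes of chromosome structure, 2 had positive and 3 negative log2 fold changes. Mki67, which encodes Ki-67, the coat of mitotic chromosomes and a common marker of cycling cells, had 10014, 12124 and 17521 reads in Rpl22-/- and 10412, 10309 and 8729 reads in Rpl22+/+ libraries. Scaled, it measured 780, 1009 and 1331 CPM against 800, 827 and 908 CPM. Rpl22-/- replicate 1 was the lowest of the 6 libraries and Rpl22-/- replicates 2 and 3 were the highest, so the Rpl22-/- values lay on both sides of the Rpl22+/+ values. The means were 1040 ± 277 CPM (SD, n = 3) and 845 ± 56.3 CPM (SD, n = 3) (log2 fold change 0.30, SE 0.14, adjusted p = 0.236 from edgeR). Top2a, the topoisomerase that untangles sister chromatids, measured 408, 585 and 589 CPM against 545, 535 and 588 CPM. Only Rpl22-/- replicate 1 stood apart there, below all other libraries (log2 fold change −0.076, SE 0.12, adjusted p = 0.765). The condensin subunits Smc2, Smc4 and Ncapd2, which compact chromosomes, had log2 fold changes of −0.10, −0.14 and 0.032. Smc2 was the steadiest gene of the list in Rpl22+/+ HSCs, at 198, 201 and 198 CPM, and in Rpl22-/- HSCs it ran from 162 through 186 to 208 CPM. Foxm1, the transcription factor that drives many of these genes, measured 63.2, 69.7 and 91.4 CPM against 57.9, 67.5 and 74.5 CPM (log2 fold change 0.17, SE 0.13, adjusted p = 0.465).

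The Rpl22-/- libraries stood apart from each other in these genes. Rpl22-/- replicate 1 was the lowest of the 3 Rpl22-/- libraries in 41 of the 42 genes (97.6%, Smc4 being the exception), against 34.4% of all genes tested, and the lowest of all 6 libraries in 27 (64.3%), against 13.6% of all genes. Rpl22-/- replicate 3 was the highest of all 6 in 27 genes (64.3%), against 16.4% of all genes. Summed over the 42 genes, the level was 4429, 5443 and 6227 CPM in Rpl22-/- replicates 1, 2 and 3 and 4903, 4961 and 5422 CPM in the Rpl22+/+ replicates. The Rpl22-/- libraries were thus both the lowest and the highest, with the Rpl22+/+ libraries between. Mki67 made up 16.3% to 21.4% of these sums, and the order of the extremes stayed without it, from 3648 CPM in Rpl22-/- replicate 1 to 4896 CPM in Rpl22-/- replicate 3. Within Rpl22+/+ HSCs, replicate 3 was the highest for 33 of the 42 genes (78.6%), against 36.0% of all genes.

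**Figure D3:**
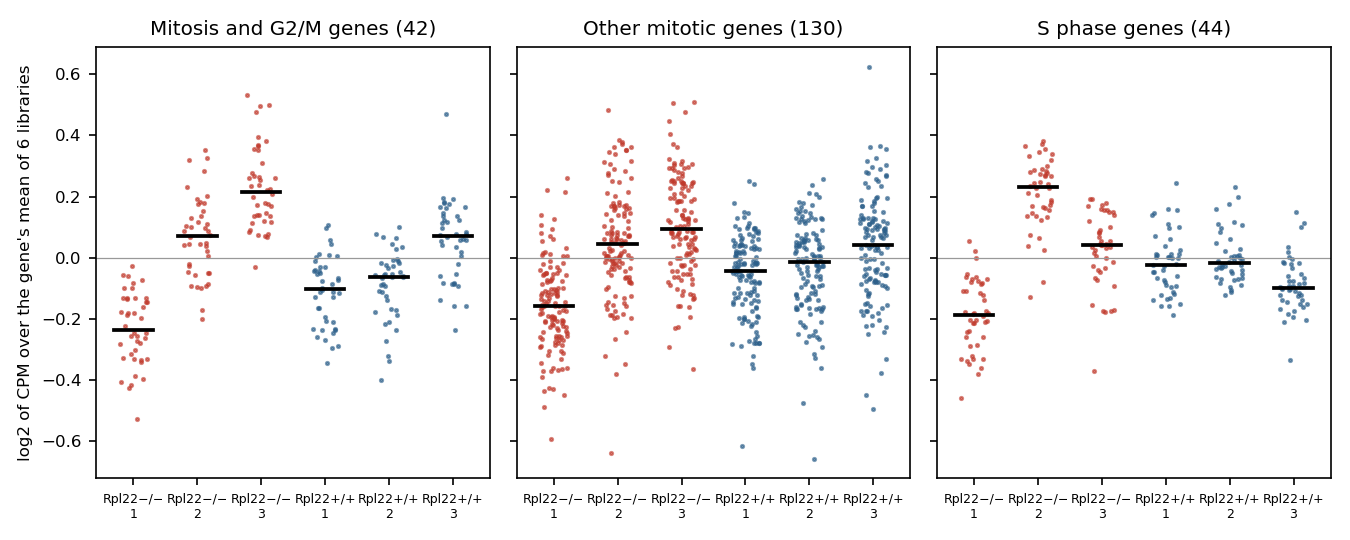
Log2 of the CPM over each gene's mean of the 6 libraries, by library, for the 42 mitosis and G2/M genes, 130 other mitotic genes and 44 S phase genes, with a point per gene and a line at the median of each library. For the mitosis and G2/M genes the median was −0.24 in Rpl22-/- replicate 1 and 0.21 in Rpl22-/- replicate 3, and in the S phase genes the highest median, 0.23, was that of Rpl22-/- replicate 2.

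The genes of DNA replication, listed by function as 44 S phase genes, gave the nearest comparison. They share the low Rpl22-/- replicate 1, with summed levels of 5134, 6820 and 5928 CPM in Rpl22-/- and 5777, 5899 and 5431 CPM in Rpl22+/+ libraries. Their highest library was another. Rpl22-/- replicate 2 was the highest of the 6 in 39 of the 44 S phase genes (88.6%) but in 7 of the 42 mitosis and G2/M genes (16.7%), which peaked in Rpl22-/- replicate 3. The ratio of the summed mitosis and G2/M level to the summed S phase level was 0.863, 0.798 and 1.05 in Rpl22-/- and 0.849, 0.841 and 0.998 in Rpl22+/+ libraries, highest in replicate 3 of each genotype, and the ranges of the genotypes overlapped. The log2 fold changes were positive for 35 of the 44 S phase genes (79.5%), with a median of 0.083. For the mitosis and G2/M genes these values were 66.7% and 0.079. By edgeR, 0 of the 44 S phase genes passed the adjusted threshold. At an unadjusted p below 0.05 there were 3 (6.82%, against 22.3% of all genes tested), 1 higher and 2 lower in Rpl22-/- HSCs. DESeq2 called 2 of them, Rfc4 and Slbp, and limma-voom 1, Rfc4, both lower in Rpl22-/- HSCs and named here after their values were seen. Without Rpl22-/- replicate 1, edgeR called 7 of the 44 (15.9%), 5 of them higher in Rpl22-/- HSCs. That fit called 12.1% of all genes, and 6.78% as higher.

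The spread between libraries was wider in Rpl22-/- HSCs for 39 of the 42 genes (92.9%), against 62.1% of all genes tested. As a share of the mean, the SD had a median of 17.6% over the 42 genes in Rpl22-/- and 7.62% in Rpl22+/+ libraries, where over all genes tested it was 11.0% and 8.54%. The widest were Cdc25c at 29.6%, Gtse1 at 27.7%, Plk1 at 27.3% and Mki67 at 26.6% in Rpl22-/- libraries. Cdc20, Cenpa and Tacc3 were the 3 genes that spread more in Rpl22+/+ libraries. In 22 of the 42 genes (52.4%) the 3 Rpl22-/- values reached both below and above all 3 Rpl22+/+ values, against 17.8% of all genes. The S phase genes showed the same, with a wider spread in Rpl22-/- libraries for 42 of 44. These shares describe 3 libraries per genotype and were not tested.

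**Figure D4:**
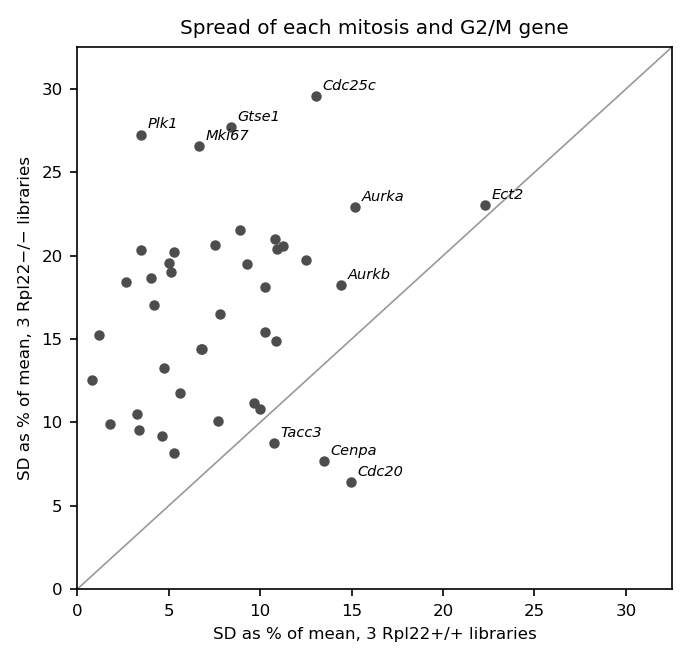
SD as a percent of the mean over the 3 Rpl22-/- libraries (vertical) and the 3 Rpl22+/+ libraries (horizontal) for each of the 42 genes, with a line where both are equal. The points of 39 genes lie above the line, and Cdc20, Cenpa and Tacc3 lie below it.

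Leaving out the library that stood lowest changed the count. Rpl22-/- replicate 1 was the lowest of its genotype in 41 of the 42 genes. Its omission therefore raises the Rpl22-/- means of these genes by construction. Without Rpl22-/- replicate 1, edgeR called 9 of the 42 genes (21.4%), all higher in Rpl22-/- HSCs, namely Plk1, Ube2c, Tpx2, Birc5, Mki67, Ccnb2, Gtse1, Kif4 and Nusap1, in a fit that called 12.1% of all genes and 6.78% as higher. In that fit 36 of the 42 log2 fold changes were positive and their median was 0.18. Without Rpl22-/- replicate 3 the median was −0.0028, 20 of the 42 were positive and 0 were called, where 0.892% of all genes were. Without Rpl22-/- replicate 2 or without Rpl22+/+ replicate 1, 2 or 3, the count was also 0, in fits that called 2.59%, 1.44%, 1.82% and 1.69% of all genes. Mki67 shows the range best. Its log2 fold change was 0.47 without Rpl22-/- replicate 1 (adjusted p = 0.0120) and 0.083 without Rpl22-/- replicate 3 (adjusted p = 0.754).

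Levels between genes were compared per length, as mean CPM per kilobase of annotated exon over the 6 libraries. They ran from 3.51 for Cdc25c to 114 for Cks2, with a median of 17.7. After Cks2 came Mki67 at 93.7, Smc4 at 69.2, Top2a at 60.1, Ccnb2 at 55.6 and Ncapd2 at 44.6, and Ect2, Ndc80 and Cdc25c stood last at 6.07, 5.67 and 3.51. Cdk1 and its cyclin B1 lay side by side at 18.5 each. Exon length here is the union of all annotated isoforms, so a gene with long alternative ends reads low on this scale.

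**Figure D5:**
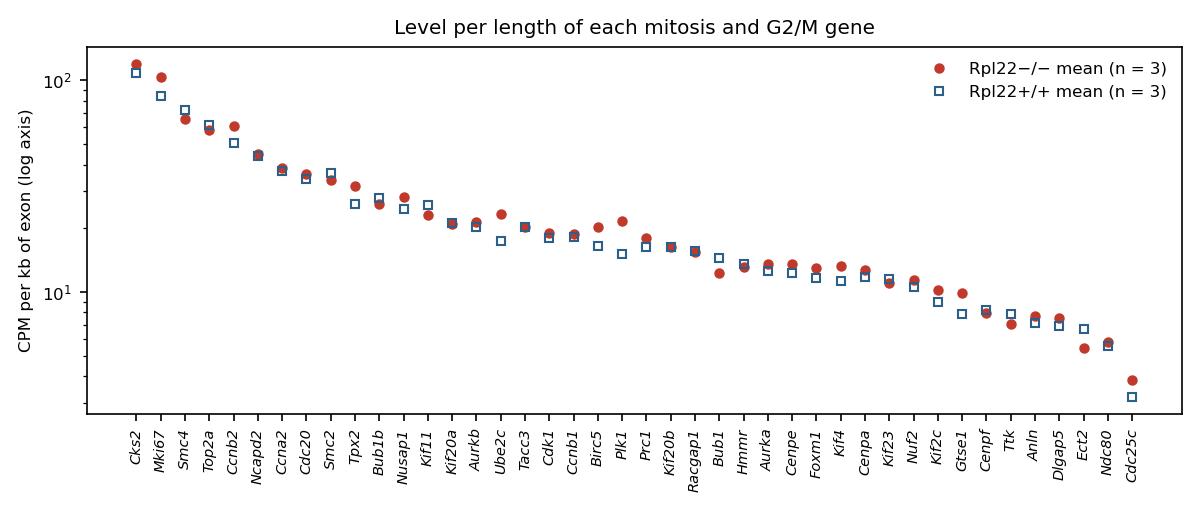
Mean CPM per kilobase of exon of each of the 42 genes in Rpl22-/- (filled circles) and Rpl22+/+ HSCs (open squares), n = 3 each, on a log axis and ordered by the mean of all libraries. The levels fall from 114 for Cks2 to 3.51 for Cdc25c, and the marks of the genotypes stay close together along the whole range.

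Other genes of mitosis, listed by function, held 5 calls, named here after their values were seen. At an adjusted p under 0.05, edgeR called 4 of the 130 tested as higher in Rpl22-/- HSCs and 1 as lower, 3.85% against 5.57% of all genes, and the median log2 fold change was 0.022. Psrc1, a spindle protein that is also known as a p53 target, rose from 30.9, 30.0 and 39.8 CPM in Rpl22+/+ to 55.3, 60.9 and 67.3 CPM in Rpl22-/- libraries (log2 fold change 0.87, SE 0.12, adjusted p = 0.00125). Its genotypes did not overlap, and Rpl22-/- replicate 1, the lowest of the 6 libraries in 61 of the 130 genes (46.9%), was well above the Rpl22+/+ libraries here. Anapc13 and Anapc11, small subunits of the anaphase-promoting complex, had log2 fold changes of 0.60 and 0.44, both called (adjusted p = 0.0107 and 0.0208 by edgeR). Ckap2l, a spindle protein, rose by 0.51 (adjusted p = 0.0309), with Rpl22-/- replicate 1 inside the Rpl22+/+ range. Esco2, which acetylates cohesin so that sister chromatids hold together, fell by 0.49 (SE 0.11, adjusted p = 0.0201), from 46.1, 40.2 and 49.5 CPM in Rpl22+/+ to 33.6, 29.7 and 33.0 CPM in Rpl22-/- libraries. Esco2 was not called with the GC trend removed, alone or with the length trend and the block. The count of 5 moved with that of the whole table. It was 18 (13.8%, against 12.1% of all genes) without Rpl22-/- replicate 1, 2 (1.54%, against 2.59%) without Rpl22-/- replicate 2 and 1, Psrc1 (0.769%, against 0.892%), without Rpl22-/- replicate 3. Without Rpl22+/+ replicate 1, 2 or 3 it was 2 (1.54%, against 1.44%), 3 (2.31%, against 1.82%) and 2 (1.54%, against 1.69%), and Psrc1 was called each time. The other condensin and cohesin genes as a list had a median of −0.089, with 8 positive and 10 negative values.

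The factors that act on the promoters of these genes were counted as 20 genes, named DREAM and MuvB factors for short. The list also holds NF-Y subunits (Nfya, Nfyb and Nfyc) and E2Fs outside these complexes (E2f1, E2f2, E2f3, E2f7 and E2f8). Of the 20, edgeR called 2 (10%, against 5.57% of all genes), both higher in Rpl22-/- HSCs. E2f4, the E2F of the DREAM complex, measured 112, 156 and 142 CPM in Rpl22-/- and 102, 110 and 91.7 CPM in Rpl22+/+ libraries (log2 fold change 0.43, SE 0.11, adjusted p = 0.0371). E2f8, an E2F repressor that is itself made in cycling cells, measured 82.2, 113 and 121 CPM against 72.0, 77.9 and 74.3 CPM (log2 fold change 0.50, SE 0.12, adjusted p = 0.0248). In both genes all Rpl22-/- libraries were above all Rpl22+/+ libraries, as in 13.3% of all genes tested. Leaving out Rpl22-/- replicate 2 or 3 or any Rpl22+/+ library brought the count to 0, in fits that called 0.892% to 2.59% of all genes, and leaving out Rpl22-/- replicate 1 brought it to 6 (30%), where 12.1% of all genes were called. E2f4 was not called with the length trend removed, with the GC trend removed, or with both removed and the block, where E2f8 was. Cdkn1a, the p53 target p21 that inhibits cyclin-dependent kinases and promotes the DREAM complex, measured 9.43, 15.5 and 13.3 CPM against 2.30, 1.69 and 2.60 CPM (log2 fold change 2.54, SE 0.25, adjusted p = 7.56e-05). Trp53, the gene of p53, measured 229, 272 and 249 CPM against 206, 211 and 215 CPM (log2 fold change 0.25, SE 0.087, adjusted p = 0.104). Cdkn1a was higher in every Rpl22-/- library than in every Rpl22+/+ library. Whether the levels of Cdkn1a or of these factors bear on the 42 genes was not tested.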

How the data were processed

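The authors sequenced polyA RNA (TruSeq RNA kit) from sorted HSCs of 3 Rpl22-/- and 3 Rpl22+/+ samples, checked reads with FastQC, aligned them to mm10 with TopHat2 2.1.1 and counted them per gene with HTSeq. The annotation, the strand setting and the HTSeq version are not given in the sources used here. The deposited values were raw counts per gene for 34573 genes in 6 libraries. The 5 summary lines of reads given to no gene, 58.6% to 60.9% of a library, were left out of library sizes and tests.

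Counts were filtered with filterByExpr (minimum count 10), scaled by TMM (factors 0.964 to 1.03) and tested, Rpl22-/- against Rpl22+/+, with edgeR 4.0.16's quasi-likelihood test in R 4.3.3, adjusting p-values by Benjamini-Hochberg across the 14004 genes kept, at a threshold of 0.05. DESeq2 1.42.0, limma-voom (limma 3.58.1), other scalings and filters, leaving out each library, the replicate number as a block, and length and GC trends were alternatives. Exon lengths, overlaps and copies (BLAST 2.17.0, at least 95% identity over 300 bases) came from GENCODE M21 on GRCm38, the build of mm10. In counts simulated for this comparison, for 13854 genes, edgeR recovered 53.0% of 100 genes changed by 0.5 on the log2 scale and 80.0% of 100 changed by 1, with 9 false calls. The groups came from the labels. Each replicate was counted as a sample. Replicates of a genotype differed by more than sampling noise, which does not show that they came from different mice. The members, the gene lists and the naming rule were chosen with earlier results of these data known. The rule took 24 genes: those called, those whose genotypes do not overlap, the smallest p and the highest and lowest mean CPM of each role, and Mki67, Ccnb1, Cdk1, Aurka, Aurkb, Plk1, Top2a and Foxm1. It also took called genes of the other lists, at most 3 each. Library values of Birc5 and Tpx2, outside that rule, were added after their values were seen. With 3 against 3 libraries an exact permutation test cannot go below p = 0.1, so none was run on single genes.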

Additional observations from a re-analysis of the deposited data

How the results depend on the processing

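Over 17 alternatives the 42 genes gave 714 log2 fold changes, of which 638 kept their direction and their side of the threshold, 18 became significant and 58 changed sign. In 21 genes the sign never changed in these alternatives, and 33 genes were called in none. The number of the 42 called was 2 with DESeq2, 5 without a filter on low counts and 2 with the replicate block, and 0 to 9 when a library was left out. All genes called were 1422 without the filter and 458 with the GC trend removed, and 127 to 1720 with a library left out. Other mitotic genes called were 15 without the filter and 1 to 18 with a library left out. DREAM and MuvB factors called were 1 with the length trend, the GC trend, or both trends removed with the block, E2f4 being lost each time, and 0 to 6 with a library left out. S phase genes called were 2 with library size alone and with DESeq2, 1 with limma-voom, without the filter, with at least 10 counts in every library, with the replicate block, with the length trend removed and with both trends and the block, and 0 to 7 with a library left out. The cause of these changes was not tested.

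Signs changed mostly in genes near 0. With library size alone, Ccnb1 was −0.011, Tacc3 −0.043 and Ncapd2 −0.015. With the length trend removed, Cenpf was 0.035, Kif20b 0.036, Tacc3 −0.0079, Kif20a 0.0027 and Racgap1 0.043. With the GC trend removed, Cenpf was 0.022, Kif20b 0.14, Hmmr 0.060, Tacc3 −0.041, Racgap1 0.025, Top2a 0.0023, Smc2 0.048, Smc4 0.00080 and Ncapd2 −0.022. With both trends removed and the replicate block, Aurka was −0.00026, Aurkb −0.0034, Cdc20 −0.048, Cenpf 0.077, Kif20b 0.15, Hmmr 0.044, Tacc3 −0.051, Racgap1 0.047, Top2a 0.027 and Smc2 0.039. With a library left out, the lowest and highest values were −0.0015 and 0.28 for Aurka, −0.055 and 0.21 for Aurkb, −0.21 and 0.045 for Bub1b, −0.034 and 0.20 for Ccna2, −0.0075 and 0.11 for Ccnb1, −0.029 and 0.25 for Cenpe, −0.23 and 0.073 for Cenpf, −0.00020 and 0.28 for Foxm1, −0.22 and 0.080 for Hmmr, −0.063 and 0.078 for Kif20a, −0.12 and 0.059 for Kif20b, −0.22 and 0.072 for Kif23, −0.033 and 0.12 for Ncapd2, −0.0054 and 0.15 for Ndc80, −0.023 and 0.29 for Prc1, −0.15 and 0.11 for Racgap1, −0.070 and 0.090 for Tacc3, and −0.16 and 0.083 for Top2a.

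The labels do not say whether libraries with the same replicate number belong together. The deviations of same-numbered libraries from their group means correlated across genes at −0.10, 0.055 and 0.045. With 3 libraries per genotype, these values over all genes cannot exclude a pairing in the 42 genes. Replicate 3 was the highest of its genotype in 32 of the 42 genes in Rpl22-/- and in 33 in Rpl22+/+ HSCs, against 30.1% and 36.0% of all genes. With the replicate as a block Plk1 and Ube2c were called (adjusted p = 0.0347 and 0.0407 from edgeR), where 6.46% of all genes were. With 3 libraries per genotype, differences much smaller than the intervals given were not detectable for single genes at this depth.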
